A study of Mus musculus with 12 samples.

Results

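The genes described here are 10 core components of the machinery that takes a cell out of G1 and into S phase: the D-type cyclins Ccnd1, Ccnd2 and Ccnd3, the cyclin-dependent kinases (CDKs) Cdk4, Cdk6 and Cdk2, the CDK inhibitors Cdkn1b and Cdkn2c, and the pocket proteins Rb1 and Rbl1. They were found by their symbols among the 56941 Ensembl genes of the count tables, and each symbol matched 1 gene. Macrophages were grown from the bone marrow of C57BL/6J mice that were wild type (WT) or lacked miR-210 (miR-210 KO). The deletion descends from a cross of miR-210 floxed with Gata-1 Cre mice, and both genotypes were bred from heterozygous parents. Monocytes selected with magnetic beads became resting (M0) macrophages in 7 days, in medium that held 20% serum and 30% supernatant of L929 fibroblasts, a source of the growth factor M-CSF. For M2-like macrophages IL-4 was then added at 20 ng/mL for 72 hours, a time the M0 wells spent without it. RNA-seq was made of 12 cultures, 3 for each genotype in each state. The ages of the mice are not given, and the labels do not say whether the cultures of a group came from separate mice, so p values measure the spread between these cultures. Each group also carries a different batch name in the labels, and the effects of batch and group cannot be told apart.

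In the textbook account, a mitogen such as M-CSF induces D-type cyclins, which bind and activate CDK4 and CDK6. These kinases, and after them CDK2 with cyclin E, phosphorylate the pocket proteins and so release the E2F factors that switch on genes for DNA replication. The inhibitor p18, encoded by Cdkn2c, blocks CDK4 and CDK6, and p27, encoded by Cdkn1b, blocks CDK2 complexes. Only RNA was measured here, and kinase activity and the phosphorylation of pocket proteins are set at the protein level.

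The library totals ranged from 7930525 to 10167695 counts. Levels are given as CPM, counts scaled to a library of 1000000 after adjustment of library sizes by the TMM method, and differences as log2 fold changes. Values of a group are given in the order of its library numbers in the tables, 1 to 3, which are names and pair nothing. In bulk RNA, a change in the share of cells that express a gene cannot be told apart from a change in RNA per cell.

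The gene of the deleted miRNA precursor was read first, as a check of the genotype labels. Mir210 (ENSMUSG00000065551, GRCm39 chr7:140801297-140801406, minus strand) was counted 1, 3 and 5 times in WT M0 and 1, 2 and 1 times in WT M2. It had 0 counts in each of the 3 miR-210 KO M0 and 3 miR-210 KO M2 libraries, and these counts are too few for a fold change. A miRNA recognises its targets mainly by the seed, bases 2 to 8. The mature miRNA most often studied from this gene is shown because its seed can be looked for in the 10 transcripts. The sequence is that of RefSeq (GRCm38.p6), with the seed in capitals.
mmu-miR-210-3p: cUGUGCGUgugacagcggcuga
The complement of the seed, ACGCACA, was searched in the 3′ UTRs of the Ensembl canonical transcripts (GENCODE annotation of GRCm39, transcript strand). It was present in 2 of the 10 genes, in 1 of 33 other genes of the pathway, and in 3.48% of 20858 protein-coding genes. The 3′ UTRs of the 10 are longer, with a median of 1716 bases against 1082 over all, and those of Ccnd1 and Cdk6 have 2676 and 10217 bases, and the part of length in these shares was not tested. The pair that held it were Ccnd1, once, 1344 bases after the stop codon (chr7:144484983-144485011, minus strand), and Cdk6, once, 6172 bases after it (chr5:3576952-3576980, plus strand). The stretches around both matches, to which these coordinates belong, are printed with the match in capitals.
Ccnd1: ccttgattcaaACGCACAcctctgccctg
Cdk6: gtatgttttacACGCACAtaaactacaag
A match of 7 letters describes the sequence and does not show that the miRNA acts on it. The values of both genes in the 2 genotypes are given below.

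During polarization all 3 D-type cyclin transcripts fell, in both genotypes, while none of the 3 kinase transcripts was called lower. Of the 10 genes, 5 were called in WT, 4 lower and 1 higher, and 4 were called in miR-210 KO, all lower. A call needed a Benjamini-Hochberg (BH) adjusted p under 0.05 by edgeR's quasi-likelihood test and a fold change over 1.2 either way, which is 0.26 on the log2 scale. The M0 and M2 libraries differed in a large part of the transcriptome, so these counts stand against a high background. In WT, 43.0% of 14266 genes tested were called, 22.1% higher and 20.9% lower. In miR-210 KO, 33.8% of 14331 genes were called, 17.4% higher and 16.4% lower. The median log2 fold change of the 10 genes was -0.15 in WT and -0.20 in miR-210 KO, against medians of 0.00 and -0.01 over all genes tested. Both comparisons of genotype called none of the 10.

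**Figure D1:**
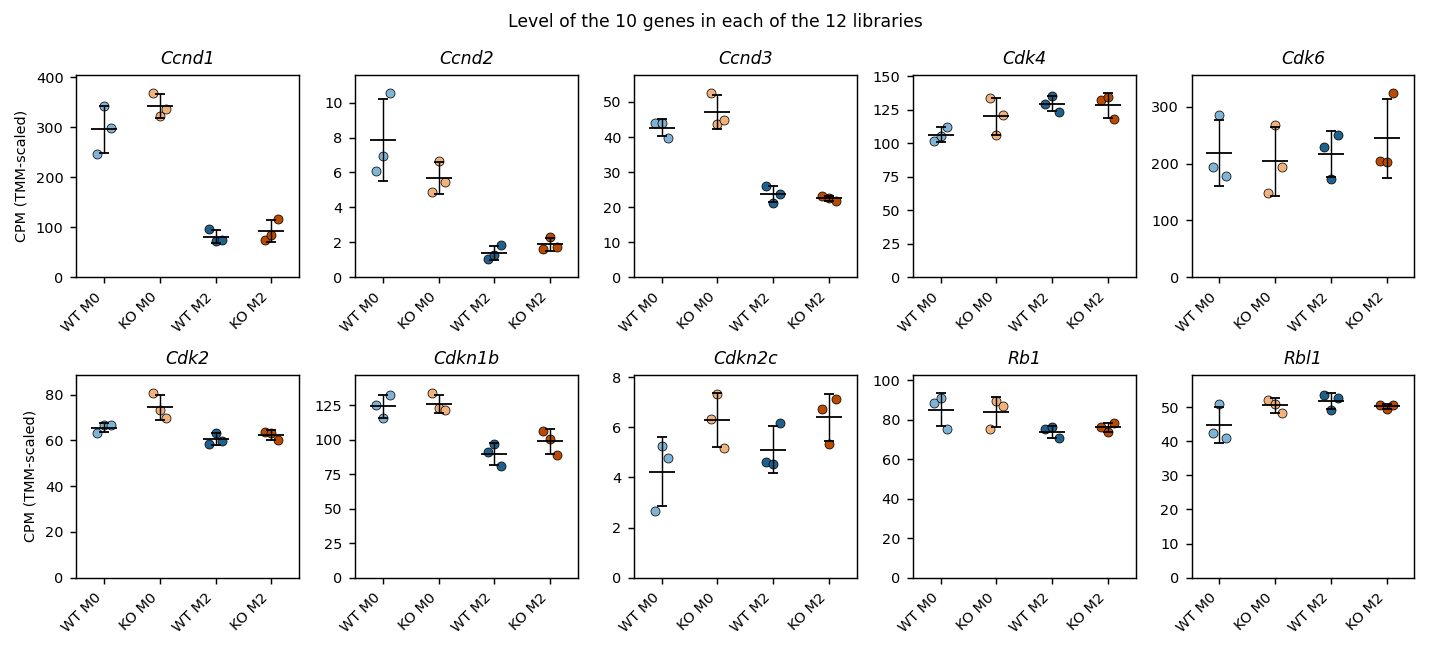
Level of each of the 10 genes in the 12 libraries, in TMM-scaled CPM on axes that start at 0. Points are libraries, and bars give the mean and SD of the 3 libraries of a group (KO, miR-210 KO). Ccnd1, Ccnd2, Ccnd3 and Cdkn1b sit lower in every M2 library than in any M0 library.

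Ccnd1 encodes cyclin D1, the D-type cyclin that M-CSF is known to induce in macrophages (ENSMUSG00000070348, GRCm39 chr7:144483668-144493662, minus strand). Its level was 246.6, 341.4 and 298.3 CPM in WT M0 and 96.2, 73.0 and 74.0 CPM in WT M2. In miR-210 KO it was 368.3, 322.2 and 336.5 CPM in M0 and 74.1, 85.6 and 117.5 CPM in M2. No M2 library reached the lowest M0 library in either genotype. The transcript fell 3.63-fold in WT (log2 fold change -1.86, SE 0.12, BH-adjusted p = 4.3e-08, edgeR) and 3.71-fold in miR-210 KO (-1.89, SE 0.14, BH-adjusted p = 2.9e-07, edgeR). Only 1.89% of the genes tested in WT, and 1.71% in miR-210 KO, had a lower log2 fold change. The interaction term, which asks whether polarization differed between the genotypes, was -0.02 on the log2 scale (95% interval -0.46 to 0.42).

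Ccnd2, which encodes cyclin D2 (ENSMUSG00000000184, chr6:127102125-127129156, minus strand), was a rare transcript. It had 6.10, 6.92 and 10.6 CPM in WT M0 and 1.06, 1.26 and 1.86 CPM in WT M2, where the last values rest on 9, 12 and 15 counts. The miR-210 KO libraries had 4.90, 6.66 and 5.48 CPM in M0 and 1.59, 2.30 and 1.75 CPM in M2. Again the 2 states did not overlap in either genotype. The fall was 5.67-fold in WT (log2 fold change -2.50, SE 0.29, BH-adjusted p = 8.8e-06, edgeR) and 2.99-fold in miR-210 KO (-1.58, SE 0.25, BH-adjusted p = 0.00027, edgeR). Of the 10 genes it had the largest interaction term, 0.93 on the log2 scale (SE 0.41), which did not pass the threshold (unadjusted p = 0.039, BH-adjusted p = 0.52, edgeR on 12 libraries).

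Ccnd3, which encodes cyclin D3 (ENSMUSG00000034165, chr17:47815767-47910624, plus strand), fell less. The 3 WT M0 libraries had 44.1, 44.1 and 39.8 CPM and the WT M2 libraries 25.9, 21.3 and 23.8 CPM. In miR-210 KO the values were 52.6, 43.8 and 44.8 CPM in M0 and 23.3, 22.6 and 21.8 CPM in M2. The M0 and M2 libraries were again fully separated. Its level dropped 1.80-fold in WT (log2 fold change -0.85, SE 0.09, BH-adjusted p = 6.3e-06, edgeR) and 2.08-fold in miR-210 KO (-1.06, SE 0.10, BH-adjusted p = 3.4e-06, edgeR). A pseudogene, Ccnd3-ps, shares 2.47% of the 50-base stretches of its longest transcript. How reads that match both genes were handled is not stated, so a small part of the Ccnd3 reads could be left out or misplaced.

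Because the 3 cyclins are alternative partners of the same kinases, their levels were also compared with each other per kb of exons. Ccnd1 made up 91.8% ± 1.2 (SD, n = 3) of the summed D-type cyclin level in WT M0, Ccnd3 6.98% ± 1.2 and Ccnd2 1.25% ± 0.36. The sum was 67.2 ± 10.0 CPM per kb in WT M0, 19.7 ± 2.9 in WT M2, 77.3 ± 5.4 in miR-210 KO M0 and 21.9 ± 4.6 in miR-210 KO M2 (SD, n = 3 each). Ccnd1 thus remained the main D-type transcript at a lower total. The share of Ccnd3 was 13.1% ± 0.96 in WT M2, and in miR-210 KO it was 6.58% ± 0.23 in M0 and 11.5% ± 2.6 in M2. Its M2 libraries lay above its M0 libraries in both genotypes, although 3 libraries against 3 cannot give an exact two-sided permutation p below 0.1. The shares depend on the length used, since the union of Ccnd3 exons (9245 bases) is much longer than its canonical transcript (2018 bases). With canonical lengths, a choice made after seeing the data, the share of Ccnd3 was 21.3% ± 3.1 in WT M0 and 35.3% ± 1.9 in WT M2.

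**Figure D2:**
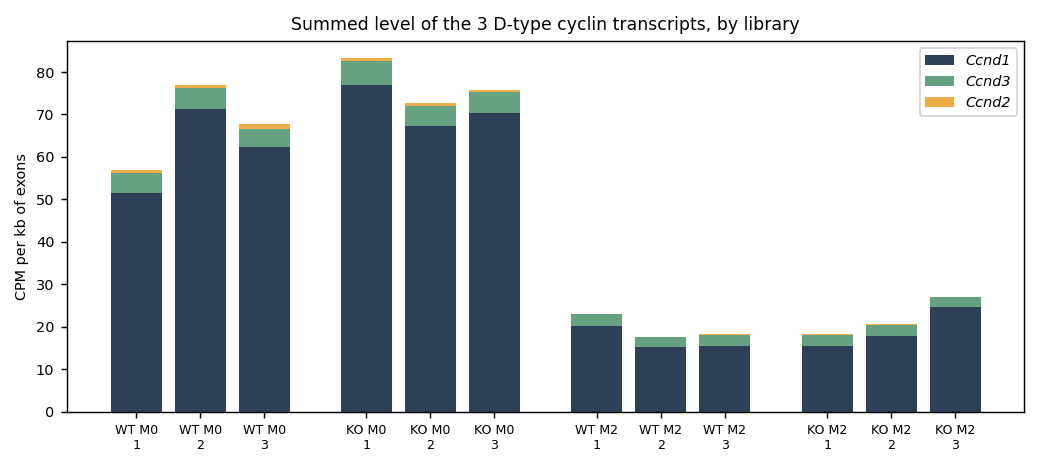
Levels of Ccnd1, Ccnd3 and Ccnd2 in each of the 12 libraries, in TMM-scaled CPM per kb of exons, stacked so that the height of a bar is their sum. The sums lie between 57.0 and 83.2 in the M0 libraries and between 17.7 and 27.1 in the M2 libraries.

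Among the kinases, Cdk4, a partner of all D-type cyclins, rose slightly in WT. It (ENSMUSG00000006728, chr10:126895180-126903789, plus strand) had 101.4, 105.4 and 112.3 CPM in WT M0 and 129.7, 135.0 and 123.7 CPM in WT M2. In miR-210 KO it had 133.6, 106.0 and 121.2 CPM in M0 and 132.6, 134.7 and 117.8 CPM in M2. The WT states were separated and the miR-210 KO states overlapped. In WT it rose 1.22-fold (log2 fold change 0.29, SE 0.07, BH-adjusted p = 0.0029, edgeR), and in miR-210 KO the change was 0.10 (SE 0.10, BH-adjusted p = 0.49, edgeR). The rise in WT was close to the 1.2-fold limit and fell under it without WT M0 library 1 (0.25) or without WT M2 library 2 (0.26). The interaction term was -0.19 (95% interval -0.44 to 0.07), so the genotypes were not shown to differ in this.

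Cdk6, the other partner of the D-type cyclins (ENSMUSG00000040274, chr5:3391485-3581008, plus strand), varied more between cultures than between groups. Its levels were 193.7, 285.0 and 178.5 CPM in WT M0, 229.1, 172.8 and 251.0 CPM in WT M2, 148.5, 268.1 and 194.8 CPM in miR-210 KO M0 and 205.3, 203.0 and 324.2 CPM in miR-210 KO M2. The coefficient of variation within a group ran from 18.6% to 29.6%, and all groups overlapped. The log2 fold change of polarization was -0.01 (SE 0.16) in WT and 0.26 (SE 0.20) in miR-210 KO, and neither was called. Without miR-210 KO M0 library 2, the highest of its group, the miR-210 KO value was 0.50 and was called (BH-adjusted p = 0.041, edgeR).

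Cdk2, the partner of cyclins E and A (ENSMUSG00000025358, chr10:128533796-128540963, minus strand), was not called. Its libraries had 63.3, 66.5 and 66.8 CPM in WT M0, 58.3, 63.4 and 59.7 CPM in WT M2, 80.6, 73.2 and 69.8 CPM in miR-210 KO M0 and 63.7, 63.3 and 60.1 CPM in miR-210 KO M2. Polarization changed it by -0.11 (SE 0.07, BH-adjusted p = 0.21, edgeR) in WT. In miR-210 KO the libraries of the 2 states did not overlap, and the log2 fold change of -0.26 (SE 0.08, BH-adjusted p = 0.032, edgeR) passed the p threshold but not the limit on the fold change. It passed both without miR-210 KO M0 library 2 (-0.28) or library 3 (-0.32).

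Of the 2 inhibitors, only Cdkn1b was called, and the difference between them was not tested. Cdkn1b (ENSMUSG00000003031, chr6:134897364-134902476, plus strand), which encodes p27, had 125.0, 115.8 and 132.4 CPM in WT M0 and 91.0, 96.9 and 81.0 CPM in WT M2. The miR-210 KO libraries had 133.7, 122.8 and 121.6 CPM in M0 and 106.7, 100.8 and 88.9 CPM in M2. Every M2 library was under every M0 library. The fall was 1.38-fold in WT (log2 fold change -0.47, SE 0.08, BH-adjusted p = 0.00028, edgeR) and 1.27-fold in miR-210 KO (-0.35, SE 0.09, BH-adjusted p = 0.0071, edgeR), smaller than that of any D-type cyclin. Cdkn2c (ENSMUSG00000028551, chr4:109517957-109524386, minus strand), which encodes p18, was rare, with 2.67 to 7.33 CPM, or 21 to 77 counts, over the 12 libraries. Its states overlapped, and its log2 fold changes of 0.24 (SE 0.24) in WT and 0.02 (SE 0.20) in miR-210 KO were not called. The 95% interval in WT ran from -0.29 to 0.77.

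Neither pocket protein was called. Rb1 (ENSMUSG00000022105, chr14:73421113-73563507, minus strand), the retinoblastoma protein gene, had 88.4, 91.3 and 75.5 CPM in WT M0, 75.3, 76.2 and 70.6 CPM in WT M2, 75.3, 89.4 and 87.2 CPM in miR-210 KO M0 and 76.2, 74.0 and 78.4 CPM in miR-210 KO M2. Its log2 fold change was -0.19 (SE 0.08, BH-adjusted p = 0.067, edgeR) in WT and -0.14 (SE 0.09, BH-adjusted p = 0.24, edgeR) in miR-210 KO. The related p107 gene Rbl1 (ENSMUSG00000027641, chr2:156987813-157046475, minus strand) had 42.4, 50.9 and 41.0 CPM in WT M0, 53.5, 49.2 and 52.6 CPM in WT M2, 52.2, 51.0 and 48.2 CPM in miR-210 KO M0 and 50.5, 49.4 and 50.7 CPM in miR-210 KO M2. In WT M0, library 2 lay apart from the other two and inside the range of the other groups. The log2 fold change of Rbl1 was 0.21 (SE 0.09, BH-adjusted p = 0.073, edgeR) in WT and -0.01 (SE 0.08, BH-adjusted p = 0.96, edgeR) in miR-210 KO. Without WT M0 library 2 it rose by 0.32 in WT (BH-adjusted p = 0.0031, edgeR), and without WT M0 library 3 Rb1 was lower by a called -0.28 (BH-adjusted p = 0.011, edgeR).

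The order of the 10 levels depends on the length they are divided by. Per kb of the union of exons, Ccnd1 led in WT M0 with 61.8 ± 9.9 CPM per kb, above Cdk4 (30.9 ± 1.6), Cdkn1b (27.3 ± 1.8) and Cdk6 (15.2 ± 4.0; SD, n = 3 each). Cdk2 followed with 10.4 ± 0.3, then Rb1 with 7.05 ± 0.70, Rbl1 with 6.10 ± 0.73, Ccnd3 with 4.62 ± 0.27, Ccnd2 with 0.835 ± 0.252 and Cdkn2c with 0.666 ± 0.217. Rb1 and Rbl1, and likewise Ccnd2 and Cdkn2c, were within their spread of each other. In WT M2 the order was led by Cdk4 with 37.6 ± 1.6 CPM per kb, and Cdkn1b (19.7 ± 1.8), Ccnd1 (16.9 ± 2.7) and Cdk6 (15.1 ± 2.8) followed, each overlapping the next in its libraries. Ccnd2 was last in WT M2, at 0.148 ± 0.044 CPM per kb. In miR-210 KO M2 the first 4 on this scale were again Cdk4 with 37.3 ± 2.7, Cdkn1b with 21.7 ± 2.0, Ccnd1 with 19.3 ± 4.7 and Cdk6 with 16.9 ± 4.8. Per kb of the canonical transcript, a scale added after seeing the data, Ccnd1 (77.8 ± 12.5) and Cdk4 (51.1 ± 2.7) still led in WT M0, but Cdk2 (28.1 ± 0.82) came beside Cdkn1b (27.3 ± 1.8), and Ccnd3 (21.2 ± 1.2) beside Cdk6 (18.8 ± 4.9). In M2, Cdk2 then followed Cdk4, with 25.9 ± 1.1 CPM per kb in WT and 26.7 ± 0.85 in miR-210 KO. Ccnd1 came after Cdk2, with 21.4 ± 3.5 in WT and 24.3 ± 5.9 in miR-210 KO, though the M2 libraries of Ccnd1 and Cdk2 overlapped in both genotypes.

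The deletion of miR-210 did not move any of the 10 genes past the threshold, in M0 or in M2. The background was low too: 0.461% of 14089 genes were called in M0 and 0.980% of 13980 in M2. None of the 10 had an unadjusted p under 0.05 in either state by edgeR or by the DESeq2 Wald test, which called none. The precision differs between the genes. For Cdk4 the log2 fold change of miR-210 KO over WT was 0.18 (95% interval -0.04 to 0.39) in M0 and -0.01 (-0.15 to 0.13) in M2. For Ccnd1, which holds a seed match, it was 0.21 (-0.04 to 0.46) in M0 and 0.19 (-0.10 to 0.48) in M2, and for Cdk6, the other such gene, -0.10 (-0.56 to 0.35) and 0.17 (-0.15 to 0.49). Ccnd3 changed by 0.14 (-0.08 to 0.36) and -0.06 (-0.27 to 0.15). The rare transcripts had the widest intervals, from -0.98 to 0.04 in M0 and -0.20 to 1.12 in M2 for Ccnd2, and from -0.01 to 1.11 and -0.07 to 0.73 for Cdkn2c. Differences inside these intervals are compatible with the data, so equal levels were not shown. Mean levels of Ccnd2 in M0 were 7.86 CPM in WT and 5.68 CPM in miR-210 KO, and in M2 1.39 and 1.88 CPM. Those of Cdkn2c were 4.24 CPM in WT and 6.285 CPM in miR-210 KO in M0, and 5.11 and 6.40 CPM in M2. The log2 fold change of miR-210 KO over WT was above 0 for 7 of the 10 genes in each state. Cdk2 was the 1 gene of the 10 whose M0 libraries did not overlap between genotypes (69.8 to 80.6 CPM in miR-210 KO and 63.3 to 66.8 CPM in WT), with a log2 fold change of 0.18 (SE 0.09, BH-adjusted p = 0.51, edgeR). In M2 none of the 10 was so separated. Over all genes tested, the genotypes did not overlap for 14.4% in M0 and 16.0% in M2, so 1 of 10 is no more than the background.

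**Figure D3:**
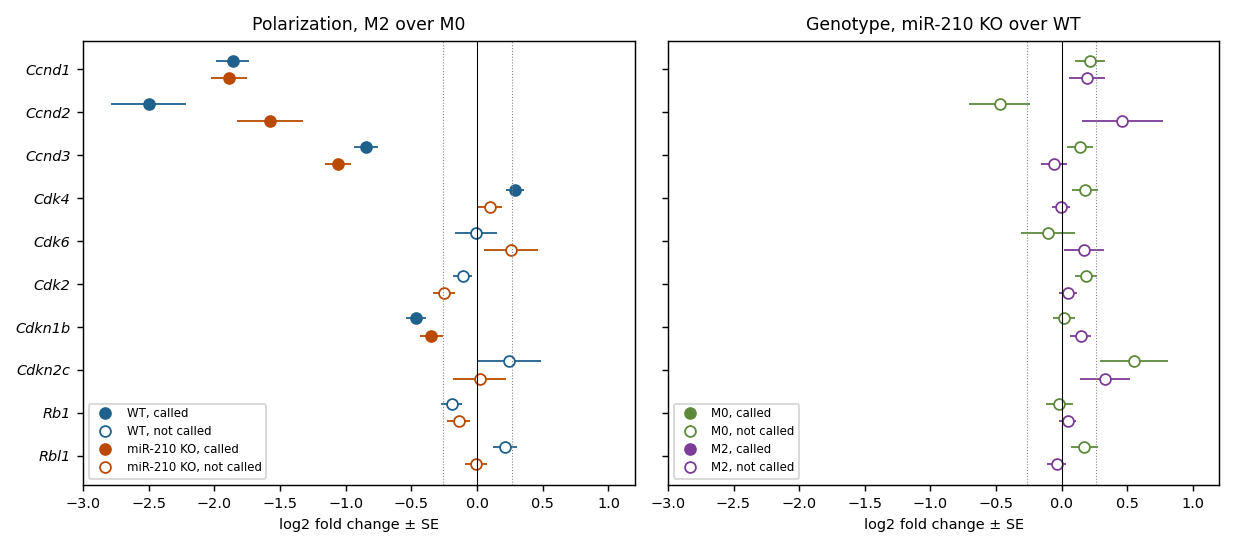
Log2 fold changes of the 10 genes with their SE, for polarization in WT and miR-210 KO (left) and for genotype in M0 and M2 (right). Filled points passed the threshold and open points did not, and dotted lines mark the limit of 0.26. The filled points are Ccnd1, Ccnd2, Ccnd3 and Cdkn1b in both genotypes and Cdk4 in WT, and every point on the right is open.

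The interaction of genotype and polarization, fitted on all 12 libraries, called none of the 10 genes and 0% of 14825 genes by edgeR. Unadjusted p was under 0.05 for 1 of the 10, Ccnd2, and for 1327 genes in all. The DESeq2 Wald test called none of the 10, none of which had an unadjusted p under 0.05 with it, and 83 genes in all. WT M0 is the reference of both WT polarization and the M0 genotype comparison, so values of a gene in these comparisons are not independent.

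Another 33 genes that surround the 10 in the pathway were followed as a list. It held cyclins E and A, other inhibitors, a further pocket protein gene (Rbl2), E2F and DP factors and CDK-activating proteins. The ubiquitin machinery that removes p27 and cyclins, and mitogen input, completed it. Of the 33 genes, all but the inhibitor Cdkn2a were abundant enough to be tested. In WT, 8 rose, 3 fell and 21 did not pass, and in miR-210 KO 3 rose, 3 fell and 26 did not. These are 34.4% and 18.8% of the 32, below the 43.0% and 33.8% of all genes. Genotype called none of the 32 in M0 or M2. An unadjusted p under 0.05 was found for 9 of the 32 in M0, a larger share than the 10.0% of all genes tested (edgeR). In M2 it was found for 4 of the 32, near the 10.7% of all genes. The interaction called none, and 5 of the 32 were under 0.05, a larger share than the 8.95% of all genes. These differences in share were not tested. The largest rise belonged to Myc, a growth-promoting transcription factor induced early by mitogens. Its libraries had 2.67, 4.55 and 4.47 CPM in WT M0 and 33.1, 24.4 and 28.1 CPM in WT M2, a log2 fold change of 2.85 (SE 0.18, BH-adjusted p = 2.3e-08, edgeR). In miR-210 KO, Myc had 7.13, 6.09 and 8.96 CPM in M0 and 24.4, 24.9 and 32.3 CPM in M2, a change of 1.88 (BH-adjusted p = 1.8e-06, edgeR). Myc thus rose in the same cultures in which Ccnd1 fell.

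Ccna2, which encodes the S-phase cyclin A2, had the next largest rise of this list. It had 7.63, 15.0 and 8.32 CPM in WT M0 and 29.2, 31.0 and 26.4 CPM in WT M2 (log2 fold change 1.48, SE 0.19, BH-adjusted p = 2.3e-05, edgeR). In miR-210 KO it had 27.7, 25.3 and 15.9 CPM in M0 and 36.1, 33.7 and 32.3 CPM in M2 (0.57, BH-adjusted p = 0.016, edgeR). All M2 libraries were above all M0 libraries of their genotype. The largest falls in WT were those of Cdkn1c, which encodes the inhibitor p57 (log2 fold change -0.71, SE 0.19, BH-adjusted p = 0.0078, edgeR), and Skp2, which marks p27 for degradation (-0.39, SE 0.09, BH-adjusted p = 0.0033, edgeR). Neither passed in miR-210 KO, where the values were -0.40 and -0.14. Csf1r, the receptor of M-CSF, is added after its values were seen, with uncalled log2 fold changes of 0.06 (BH-adjusted p = 0.51, edgeR) in WT and 0.13 (BH-adjusted p = 0.30, edgeR) in miR-210 KO.

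**Figure D4:**
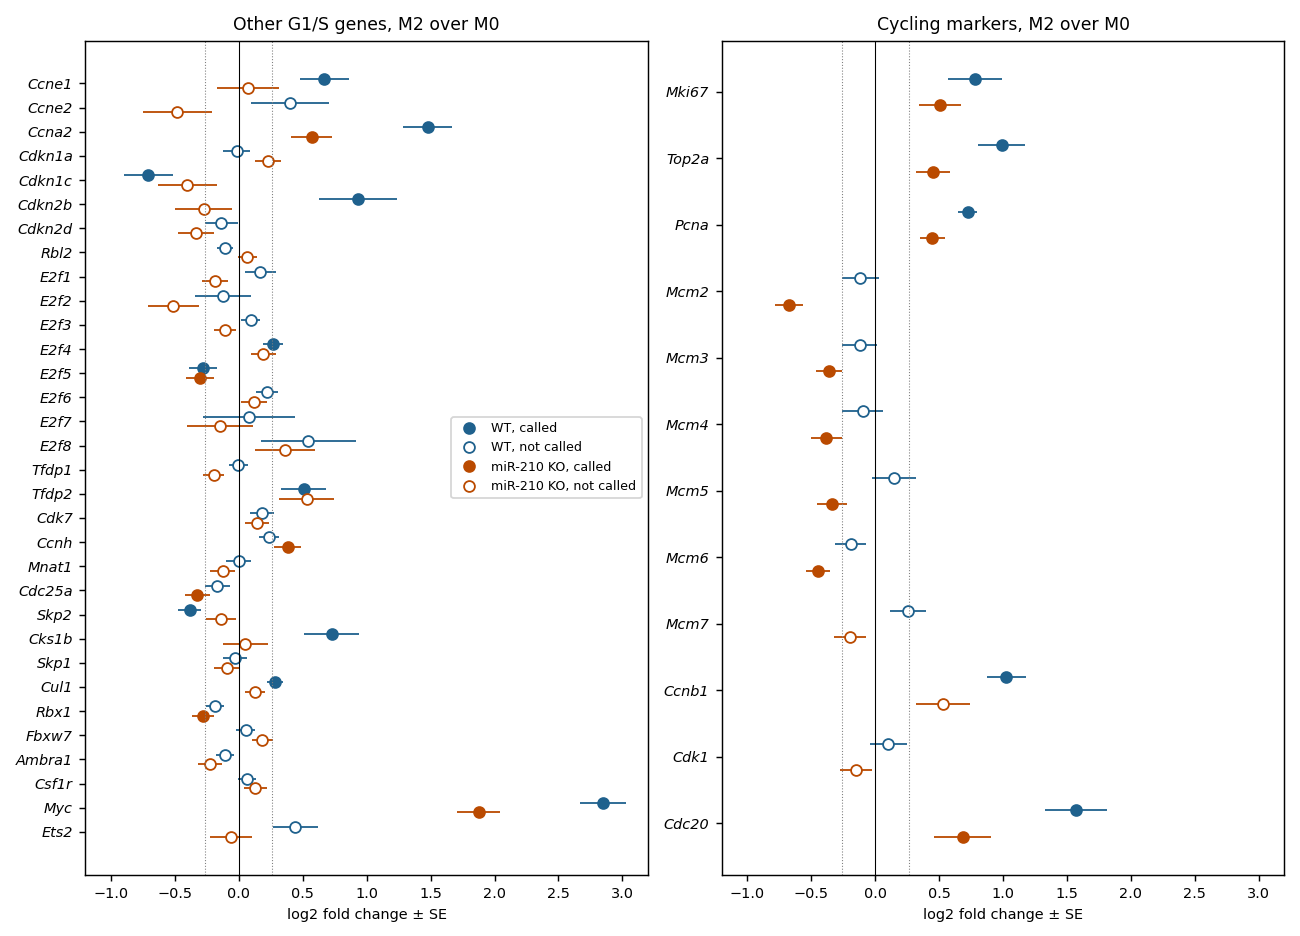
Log2 fold changes of polarization with their SE for the 32 tested genes around the 10 (left) and for 12 markers of cycling cells (right), in WT and miR-210 KO. Filled points passed the threshold, open points did not, and dotted lines mark the 1.2-fold limit. Myc and Ccna2 have the largest rises on the left, and Mcm2, Mcm3, Mcm4, Mcm5 and Mcm6 are filled below 0 in miR-210 KO and open in WT.

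Markers of cycling cells were read beside these results, and their part in them was not tested. Of 12 such genes, 5 rose in WT (Mki67, Top2a, Pcna, Ccnb1 and Cdc20) and 7 did not pass. In miR-210 KO, 4 of those 5 rose (all but Ccnb1), 5 fell (Mcm2, Mcm3, Mcm4, Mcm5 and Mcm6, subunits of the replicative helicase) and 3 did not pass. Called were thus 41.7% of the 12 in WT, near the 43.0% of all genes, and 75% in miR-210 KO, against 33.8%. These genes are named here after their values were seen. Mcm2 to Mcm6, in that order, had group means of 40.3, 38.2, 33.0, 21.3 and 58.3 CPM in WT M0. In miR-210 KO M0 the means were 60.5, 49.35, 41.5, 32.85 and 75.4 CPM. They were 37.1, 35.05, 30.8, 23.7 and 51.0 CPM in WT M2, and 37.8, 38.4, 31.9, 25.9 and 55.3 CPM in miR-210 KO M2. The summed level of the 12 was 518.0, 629.3 and 518.9 CPM in WT M0 and 790.4, 704.5 and 663.4 CPM in miR-210 KO M0. It was 794.7, 782.6 and 747.7 CPM in WT M2 and 774.9, 795.4 and 820.4 CPM in miR-210 KO M2, and Pcna was the most abundant of them. The WT M0 libraries were thus the lowest in this sum, though not in each gene, and Mki67 had 56.0, 88.0 and 37.0 CPM in them. The log2 fold change of miR-210 KO over WT was above 0 for all 12 in M0 and for 9 of the 12 in M2. Genotype called none of the 12 in M0. There 8 of the 12 had an unadjusted p under 0.05, a larger share than the 10.0% of all genes (edgeR). In M2 it called none, and 1 of the 12 was under 0.05, against 10.7% of all genes. The interaction called none of the 12 either, and 3 of the 12 had an unadjusted p under 0.05, a larger share than the 8.95% of all genes. These differences in share were not tested.

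The libraries carried the markers of their labels. The 7 macrophage markers summed to between 7298 and 9868 CPM in every library, with Lyz2 the most abundant. Of the IL-4 markers, Retnla was at 0 counts in all 6 M0 libraries and at 270.6 to 479.9 CPM in the M2 libraries. Markers of other cells were scarce. Those of neutrophils summed to at most 4.64 CPM, with S100a8 the most abundant and Ly6g at 0 in all 12 libraries, and those of T and NK cells to at most 5.21 CPM, nearly all Cd4, with Cd3e and Cd3g at 0. Those of B cells reached 10.2 CPM, mostly Cd79b, with Ms4a1 at 0. Markers of fibroblasts, erythroid cells and mast cells or basophils reached 2.29, 3.90 and 0.211 CPM. Polarization called S100a8, the 1 neutrophil marker tested, higher in WT (log2 fold change 2.04) and not in miR-210 KO (-0.19). It called Cd4, the 1 T and NK cell marker tested, lower in both (-1.33 and -1.03). The 1 B cell marker tested was not called in either genotype. The dendritic cell list rose from at most 0.952 CPM in M0 to between 10.2 and 18.0 CPM in M2, almost all of it Zbtb46, with Flt3 at 2 counts in 1 library and 0 in the other 11.

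For the 3 genes with the largest changes in WT polarization, the protein-coding genes with the most similar pattern were sought among 11142 with an average normalized count over 10. The measure was Pearson's r of log2(CPM + 1) over the 12 libraries, which share the strong difference between M0 and M2, so that 948 genes had an r over 0.9 with Ccnd1. The closest to Ccnd1 were Adgb (r = 0.99), Dusp6 (r = 0.99) and Dgkd (r = 0.988). Dusp6, which encodes a phosphatase of ERK, went from 569.6 CPM in WT M0 to 139.7 in WT M2, and from 632.8 to 146.3 CPM in miR-210 KO (group means). The closest to Ccnd3 were Ssx2ip (r = 0.987), Slc25a37 (r = 0.987) and Morn2 (r = 0.985), and the closest to Ccnd2 were Grk6 (r = 0.973), Or2v1 (r = 0.963) and Fam204a (r = 0.963). With values of 1 to 11 CPM, the pattern of Ccnd2 carries more counting noise than those of the other two.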

How the data were processed

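The authors trimmed the reads (Trimmomatic), removed duplicates (Picard), aligned with STAR to GRCm39 and used featureCounts with strand to count them per gene. The deposited values are these counts, in 4 tables for the 4 pairs of groups, and a signal, in which each library's counts are scaled by its size factor, used for levels as an alternative. Removing duplicates can lower counts of abundant genes. Stranded counting separates the 10 genes from opposite-strand genes that overlap each of them, and no same-strand exon overlapped them. GENCODE matched 56323 of 56941 identifiers, and per-kb levels used the union of exons. Tests used edgeR 4.0.16 in R 4.3.3 (TMM, filterByExpr by group, quasi-likelihood test) on the 6 libraries of a pair, or on 12 for the interaction, with BH adjustment over all genes tested and the interaction without a limit on the fold change. The SE is the size of the log2 fold change divided by the square root of F. DESeq2 1.42.0 was an alternative. The scripts were tested on simulated data. Columns show a group but not a sample, so library numbers are names. No library repeated another of its group within counting noise. Members, lists and tests were chosen with earlier results of these data known. The genes named are the 10, the 2 largest rises and falls of the list of 33 in WT polarization, any of them called for genotype or interaction, and the 3 genes most like each of the 3 most changed members. Results for some marker genes are not reported here.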

Additional observations from a re-analysis of the deposited data

How the results depend on the processing

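The number of the 10 genes called stayed at 4 to 6 for polarization in WT, at 4 to 6 in miR-210 KO and at 0 for genotype in M0, genotype in M2 and the interaction, over 13 alternatives each (16 for the interaction). These were the DESeq2 Wald test, DESeq2 size factors, no filter on low counts, a fit of 12 libraries, no limit on the fold change, protein-coding genes with an average count over 10, the library number as a block, and each library left out. For the interaction, the fit of 12 libraries without a limit on the fold change is the reported test, and the restriction to protein-coding genes was not run. Of 680 recomputed log2 fold changes of the 10 genes, 2 lost their call, 6 gained one and none with a call changed sign, and 28 without a call did. On the deposited normalized counts all 40 log2 ratios of group means moved by at most 0.008. The counts over all genes were less stable for genotype. For M0 (65 called) they were 207 with DESeq2, 248 with the fit of 12 libraries, 532 with no filter, and 20 to 302 with a library left out, the highest without WT M0 library 2. For M2 (137 called) they were 60 with the fit of 12 libraries, 360 with no filter and 53 to 215 with a library left out. For the interaction (0 called) they were 83 with DESeq2, 341 with no filter and 0 to 77 with a library left out, the highest without miR-210 KO M0 library 2. The cause was not tested. Same-numbered libraries did not deviate together in all pairs (r between -0.333 and 0.402), so the numbers were not taken as a pairing. With the number as a replicate block, the calls over all genes were 284 for genotype in M0 and 289 in M2, and the 10 genes had 5, 4, 0, 0 and 0 calls, as without it. Depth limits Ccnd2 and Cdkn2c most, with 9 to 104 and 21 to 77 counts a library.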

Other observations

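Of the 7 macrophage markers read as a check of the labels, polarization called 1 higher and 3 lower in WT and 4 lower in miR-210 KO, and 3 did not pass in each. Over all genes 43.0% and 33.8% were called. The genes named here were chosen after their values were seen. Fcgr1, the high-affinity receptor for IgG, fell from a mean of 499.4 CPM in WT M0 to 63.4 CPM in WT M2 (log2 fold change -2.97, BH-adjusted p = 4.7e-10, edgeR) and from 334.9 to 55.4 CPM in miR-210 KO (-2.59, BH-adjusted p = 2.6e-08, edgeR). Mertk, a receptor for the uptake of dying cells, fell from 202.6 to 80.1 CPM in WT (-1.33, BH-adjusted p = 4.3e-09, edgeR) and from 184.8 to 99.0 CPM in miR-210 KO (-0.90, BH-adjusted p = 5.4e-06, edgeR). Itgam, which encodes CD11b, rose in WT by 0.62 (BH-adjusted p = 8.6e-05, edgeR), and in miR-210 KO its value of 0.21 was under the limit on the fold change (BH-adjusted p = 0.048, edgeR). Zbtb46, a transcription factor known from dendritic cells, was the 1 dendritic cell marker of 4 with enough counts for the test of polarization, with 2 to 6 counts in each M0 library and 88 to 143 counts in each M2 library.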
